A study of Mus musculus with 23 samples.

Results

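The nuclear genes for the subunits of the mitochondrial respiratory chain and of ATP synthase were followed in mouse colon over the first days of colitis caused by dextran sulfate sodium (DSS). Members were taken by gene symbol: those beginning with Nduf, Uqcr, Atp5 or Cox and a digit, together with Sdha, Sdhb, Sdhc and Sdhd. This gave 98 genes of the 18193 named on the array, with 197 probe sets of their own. A further 11 probe sets that carry several symbols were not named. By complex there were 34 genes of complex I, 4 of complex II, 8 of complex III, 18 of complex IV and 17 of ATP synthase (complex V), and 17 that are no subunits of a complex but mostly assembly factors. Ndufa4 and Ndufa4l2 were counted with complex IV, to which the protein of Ndufa4 is now assigned. The filter on low values left 95 of the 98 genes. Cox4i2, Cox7b2 and Ndufb4 did not pass it and were not tested.

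Colon RNA came from C57BL/6J mice aged 12 to 14 weeks, an inbred laboratory strain, and each animal gave 1 array. Separate cohorts were sampled before treatment (day 0, 5 mice) and after 2, 4 or 6 days of 3% DSS in the drinking water (6 mice each). DSS is a charged sugar polymer that damages the lining of the colon, and the series follows the tissue as colitis develops. Which piece of the colon was taken is not given in the sources used here. All groups are of the same strain, and the labels name no transgene or deletion. Arrays are named by day and mouse number, and the same mouse number on different days is a different animal.

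Complexes I to IV pass electrons from nutrients to oxygen and, except for complex II, pump protons across the inner mitochondrial membrane. ATP synthase lets the protons flow back and makes ATP. Complex I, complex III, complex IV and ATP synthase each join subunits encoded in the nucleus with a few encoded in mitochondrial DNA, while complex II is encoded in the nucleus alone. Colonocytes rely strongly on this machinery because they oxidise butyrate, a fatty acid made by gut bacteria.

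Before the members are described, some facts of the whole series bear on them. The array medians of signal lay between 97.3 and 121, and all 12 pan-epithelial markers were tested, with a mean log2 level between 13.09 and 13.7 on every array, so the arrays carry colon epithelium. Bulk arrays cannot separate fewer cells of a type from less RNA per cell. RNA quality and hybridization moved with day. The log2 ratio of 3' to 5' signal of the beta-actin control rose from 0.43 at day 0 to 0.61 at day 4 and 0.51 at day 6, that of Gapdh from -0.39 to -0.21 and -0.24. The mean log2 level of the hybridization controls, foreign transcripts added to each sample, was 11.2 at day 0, 10.8 at day 4 and 10.7 at day 6. For each of these 3 measures the arrays of day 4 and those of day 6 did not overlap with day 0 (exact permutation test, two-sided, p = 0.00433 each, adjusted p = 0.00649 over 9 tests). Inflammatory cells and muscle also moved: all 5 neutrophil and all 6 macrophage markers tested rose at day 6, with median log2 changes of 3.79 and 1.19, and the mean log2 level of 12 skeletal muscle markers ranged from 6.17 on day 2 mouse 8 to 12.2 on day 6 mouse 21. Of 6 squamous epithelium markers 2 rose and 0 fell at day 6, 5 of them above day 0 without overlap, with a median log2 change of 1.76 that became -0.11 with the level of the hybridization controls as a covariate. Their mean log2 level was lowest on day 2 mouse 8 and day 4 mouse 8 (6.14 and 6.77), which also had the lowest skeletal muscle levels. The mean log2 level of 3 pancreas markers was 14.83 on day 2 mouse 6 and 12.96 on day 6 mouse 1, against 8.28 to 10.16 on the other arrays. The part of these measures in the results below was not tested, except where a covariate or a left-out array is named.

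At day 6 genes of all complexes were lower than before treatment. Of the 95 genes, 45 fell and 1 rose against day 0 (47.4% lower), where 14.4% of all 12463 genes tested fell and 18.1% rose (limma, Benjamini-Hochberg adjusted p of 0.05 or less). The median change of the 95 genes was -0.16 on the log2 scale, a level 10.6% lower, against 0.02 for all genes. The falls were small: those that passed ranged from 8.1% to 26.7% with a median of 15.0%, apart from the muscle-type subunit gene Cox7a1, which fell by 57.1%. In 17 genes all day 6 arrays lay below all day 0 arrays (6.67% of all genes did so). With each array centred on its median, 61 of the 95 genes fell and 1 rose, while 2618 of all genes fell and 1761 rose, against 1790 and 2262 as deposited.

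These genes are among the brightest on the array, so the same counts were taken over bright genes alone, with a level threshold chosen after the data were seen. Of 979 genes with a mean log2 level of at least 12, 26.5% fell and 16.3% rose at day 6, with a median of -0.05. Of the 67 members in that range, 42 fell and 0 rose in the same limma fit (62.7% lower), with a median of -0.17, and 48 (71.6%) had an unadjusted p under 0.05, where 52.2% of the bright genes had one.

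**Figure D1:**
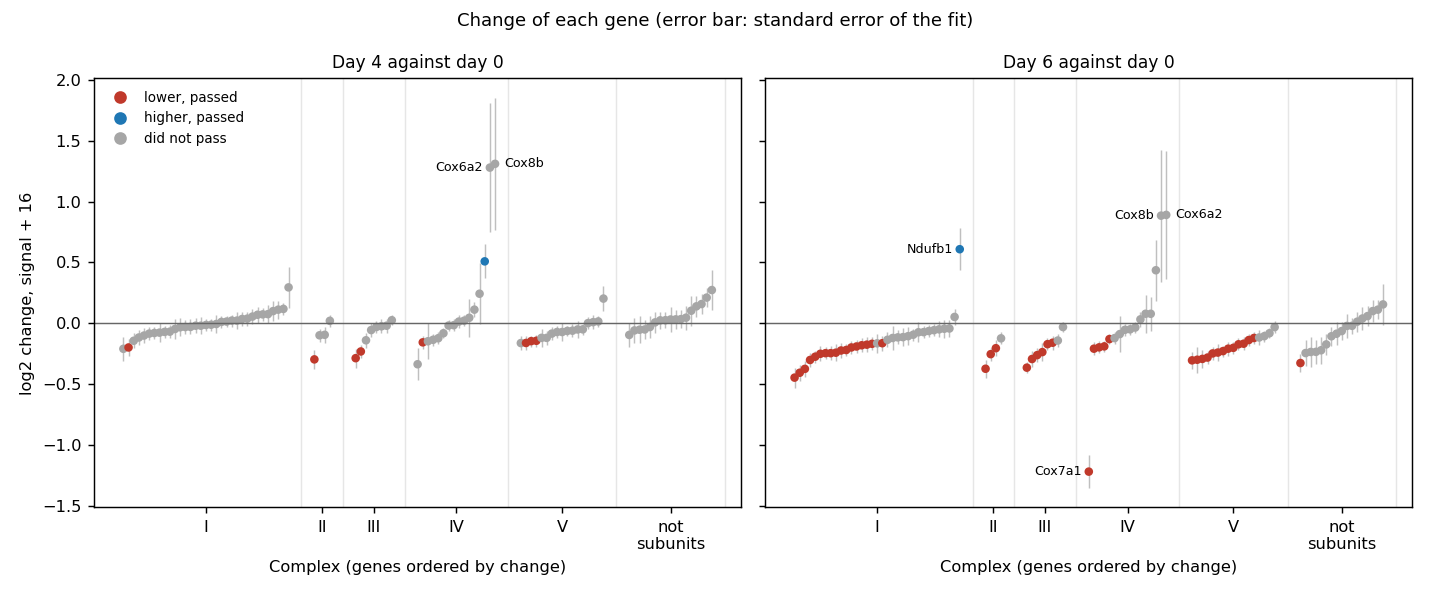
Change of each of the 95 genes against day 0 on the log2(signal + 16) scale (vertical axis), grouped by complex and ordered by change within it, at day 4 (left) and day 6 (right). Points are estimates, bars are standard errors of the limma fit, and red and blue mark genes that passed the test; at day 6 most points of complexes I, II, III and V lie slightly below 0, and Cox7a1 lies far below at -1.22.

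Fewer genes passed with the level of the hybridization controls in the fit. With that level as a covariate, 5 of the 45 genes passed as lower at day 6 (Cox7a1, Ndufa7, Ndufab1, Uqcr10 and Uqcr11) and 0 as higher. These 5 are 5.26% of the 95 genes, near the 3.74% of all genes that passed as lower in the same limma fit (4.22% as higher). In that fit 20 of the 95 (21.1%) had an unadjusted p under 0.05, no larger a share than the 2846 of all 12463 genes that had one. Day and control level do not overlap between day 0 and day 6, so the effects of day and of control level cannot be told apart in this design. The medians under the covariate were -0.16 for complex I, -0.17 for complex II, -0.13 for complex III and -0.14 for ATP synthase, and 0.04 for complex IV.

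The fall at day 6 was not the same on every array. The median deviation of the complex I genes from the day 0 mean was -0.28 on day 6 mouse 4, -0.22 on mouse 7, -0.20 on mouse 21, -0.13 on mouse 29, -0.10 on mouse 1 and -0.05 on mouse 3. On the same arrays ATP synthase had -0.32, -0.19, -0.27, -0.16, -0.08 and -0.12. The 5 day 0 arrays lay between -0.04 and 0.03 for complex I and between -0.06 and 0.06 for ATP synthase, so all 6 day 6 arrays were below them. Day 6 mouse 4 was lowest in complexes I, II, III and V. Without any 1 array the number of genes lower at day 6 was 37 to 49.

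**Figure D2:**
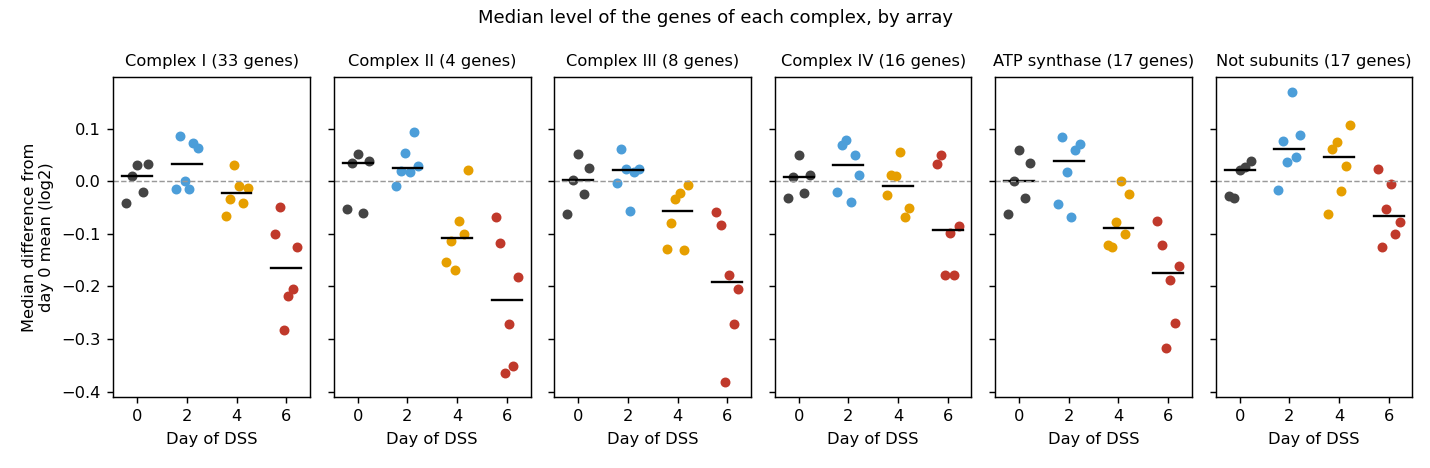
Median difference from the day 0 mean over the genes of each complex (log2, vertical axis) on each array, by day of DSS. Each point is 1 array and each line the median of the day. At day 4 the medians of complex II (4 genes) and ATP synthase were already lower, at -0.11 and -0.09. Day 6 mouse 4 is the lowest point of complexes I, II, III and V.

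At day 2 no gene passed the test. Of the 95 genes, 0 rose and 0 fell by limma, where 0.016% of all genes rose and 0.0642% fell. At an unadjusted p under 0.05 there were 3 (3.16%, where 12.8% of all genes had one), Ndufb1, Ndufb2 and Ndufa4, each with a higher estimate. The count was also 0 in both directions under each other setting tried, including each probe set tested by itself. Median changes lay between 0.00 (complex III) and 0.04 (complex IV).

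At day 4 few genes had moved. Against day 0, 8 fell and 1 rose (8.4% lower, where 4.34% of all genes fell and 12.1% rose), and 7 lay below day 0 with no overlap between arrays (2.47% of all genes). The 8 were Ndufa10 of complex I, Sdhc of complex II, Uqcrfs1 and Uqcrq of complex III, Cox8a of complex IV, and Atp5a1, Atp5g1 and Atp5j of ATP synthase. The gene that rose was Cox7c. Both this comparison and that of day 6 rest on the same 5 arrays of day 0. The number of falls became 3 when day 0 mouse 3 or 4 was left out, 4 for day 0 mouse 5 or day 4 mouse 1 or 7, and 5 for day 0 mouse 2 or day 4 mouse 3 or 4. The number of rises became 2 for day 0 mouse 5 or day 4 mouse 7, and 3 for day 4 mouse 8. After median centring 20 of the 95 fell and 1 rose, while 1019 of all genes fell and 943 rose, against 541 and 1504 as deposited. With the hybridization control level as a covariate 0 of the 95 passed in limma in either direction, where 0.209% of all genes fell and 0.834% rose. In that fit 15 of the 95 (15.8%) had an unadjusted p under 0.05, near the 16.8% of all genes. Without the covariate, 6.44% of the genes with a mean log2 level of at least 12 fell at day 4 and 11.3% rose. Of the 67 members in that range, 11.9% fell and 0 rose.

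Between the treated days, 10 genes fell and 1 rose from day 2 to day 4 (10.5% lower, where 4.12% of all genes fell and 9.45% rose). They were the 8 named for day 4 together with Atp5b and Atp5mpl, and again Cox7c as the only rise, a call lost by leaving out any of 4 arrays, day 2 mice 1 and 7 and day 4 mice 3 and 4, which made the number of rises 0. It was 2 when day 2 mouse 17 or day 4 mouse 8 was left out. The call of Ndufa10 in this interval was lost for any of 15 arrays. The split was 5 lower and 2 higher after quantile normalization and 25 and 0 after median centring, where 943 of all genes fell and 626 rose, against 513 and 1178 as deposited. From day 4 to day 6, 31 genes fell and 0 rose (32.6% lower, where 13.7% of all genes fell and 9.07% rose), with 44 (46.3%) at an unadjusted p under 0.05 in limma, where 34.9% of all genes had one. Without day 6 mouse 4 the number was 20. With the hybridization control level as a covariate it was 22 (23.2%, where 12.9% of all genes fell and 8.25% rose). In 12 genes all day 6 arrays lay below all day 4 arrays (4.49% of all genes). Of the genes with a mean log2 level of at least 12, 13.0% fell from day 2 to day 4 and 21.1% from day 4 to day 6. Of the 67 members in that range, 14.9% and 35.8% fell in these intervals. The share of bright members lower from day 2 to day 4 was thus near that of all bright genes.

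Promoter sequences were taken from RefSeq (GRCm38.p6) for 3 of the members that fell at day 6. Cox7a1 has the largest fall of all members. Uqcr11 has the lowest adjusted p of complex III, and Ndufa6 the largest fall of complex I. The 250 bases before the start are given 5' to 3' on the gene's strand, with matches in capitals. Capitals mark GCATGCGC, the core of the site of the factor NRF1, and CCGGAAG, a core of sites of ETS factors such as GABP, each searched on both strands; these factors are known regulators of respiratory chain genes. Cox7a1 lies at chr7:30183921-30184170 (+), Uqcr11 at chr10:80406822-80407071 (-) and Ndufa6 at chr15:82354292-82354541 (-).
Cox7a1: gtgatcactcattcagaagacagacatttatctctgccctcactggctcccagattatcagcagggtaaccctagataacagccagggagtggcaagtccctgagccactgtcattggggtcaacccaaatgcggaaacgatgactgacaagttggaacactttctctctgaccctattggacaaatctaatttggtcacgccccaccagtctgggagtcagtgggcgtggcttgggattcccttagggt
Uqcr11: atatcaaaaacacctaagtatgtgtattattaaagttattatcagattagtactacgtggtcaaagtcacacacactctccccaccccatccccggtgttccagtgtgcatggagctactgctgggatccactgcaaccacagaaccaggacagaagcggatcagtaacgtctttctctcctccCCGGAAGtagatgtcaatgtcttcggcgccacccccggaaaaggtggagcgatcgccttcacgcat
Ndufa6: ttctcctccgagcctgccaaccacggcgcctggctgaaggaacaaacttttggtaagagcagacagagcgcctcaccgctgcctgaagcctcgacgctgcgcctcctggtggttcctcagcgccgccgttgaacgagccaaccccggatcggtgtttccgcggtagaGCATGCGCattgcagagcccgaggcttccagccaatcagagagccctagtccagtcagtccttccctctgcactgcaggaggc
The stretch of Ndufa6 holds the NRF1 core, that of Uqcr11 the ETS core, and that of Cox7a1 neither. An NRF1 core of Uqcr11 crosses the start site and so ends beyond the stretch shown.

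Promoter windows of 300 bases, from 250 before to 50 after the start, were given for 80 of the 98 genes (86 windows). The NRF1 core was in 12.8% of these windows and in 2.71% of all 32851 windows, and the ETS core in 27.9% and 8.86%. Of the genes with a window, 5 of 36 that fell (13.9%) and 6 of 41 that did not pass (14.6%) had the NRF1 core, and 12 (33.3%) and 11 (26.8%) the ETS core; the difference was not tested. A match is a stretch of letters and no measured site.

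Complex I, the entry point for electrons from NADH, had 17 genes lower and 1 higher at day 6 of 33 tested, with a median change of -0.17. Ndufa6, an accessory subunit, had signals of 8632, 10390, 11165, 10249 and 8838 on the day 0 arrays. At day 6 its lowest, median and highest signals were 5736, 7384 and 8362, against 8114, 9255 and 10055 at day 2 and 8835, 9502 and 10448 at day 4. All day 6 arrays were below all day 0 and all day 4 arrays, while days 2 and 4 overlapped with day 0. The change at day 6 was -0.45 ± 0.08 (SE; limma, adjusted p = 0.000232).

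Ndufa7, another accessory subunit, had 7110, 8763, 9049, 8392 and 8007 at day 0 and 5658, 6098 and 6911 as lowest, median and highest at day 6. Here too the days did not overlap, and the change was -0.41 ± 0.07 (SE; limma, adjusted p = 4.23e-05). Ndufa10, also accessory, was the complex I gene that moved earlier. Its signals were 5034, 5345, 5185, 5527 and 5658 at day 0, then 4139, 4701 and 5004 at day 4 and 3625, 4026 and 4623 at day 6 (lowest, median, highest). It was below day 0 without overlap on both days, by -0.20 at day 4 (adjusted p = 0.0442) and -0.38 at day 6 (adjusted p = 0.000161). The day 4 call did not hold without any 1 of 9 arrays, 4 of them of day 0 (all but mouse 1), 4 of day 4 (mice 4, 6, 7 and 8) and day 2 mouse 7.

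Of 6 genes of the catalytic core of complex I tested, 3 fell at day 6. Ndufv1, which binds the flavin that takes electrons from NADH, changed by -0.24 and Ndufs1, which carries iron-sulfur clusters, by -0.18 at day 6 (limma, adjusted p = 0.0115 and 0.0271). Ndufs3, which lies in the arm that faces the matrix, fell by 0.18. The core genes Ndufs7 at -0.17, Ndufs8 at -0.12 and Ndufv2 at -0.07 did not pass (adjusted p from 0.106 to 0.369). Ndufab1, an accessory subunit that is the mitochondrial acyl carrier protein, fell by 0.25.

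From day 4 to day 6 complex I gave 16 of the 31 falls. The largest were Ndufa6 at -0.40, Ndufa7 at -0.31 and Ndufb5 and Ndufc1 at -0.27 each. Its median moved by -0.15 in that interval, against -0.02 from day 0 to day 4.

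Ndufb1 was the only gene of the 95 called higher at day 6. Its single probe set was dim, with 217, 177, 199, 218 and 168 at day 0 and 223, 314 and 430 (lowest, median, highest) at day 6, without overlap (no overlap upward in 9.93% of all genes). The change was 0.61 ± 0.17 (SE; limma, adjusted p = 0.0082). Its estimate was also above 0 at day 2 (0.47) and day 4 (0.29), where it did not pass.

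Complex II, succinate dehydrogenase, links the citric acid cycle to the chain, and 3 of its 4 genes fell at day 6, with a median of -0.23. Sdhc, which helps anchor the complex in the membrane, had 5680, 5671, 6062, 4802 and 5605 at day 0. Its lowest, median and highest signals were 4833, 5538 and 6121 at day 2, 4159, 4485 and 4917 at day 4 and 3808, 4229 and 5023 at day 6. Days 4 and 6 overlapped with day 0 only through day 0 mouse 4, the lowest of its day. The change was -0.30 ± 0.08 at day 4 (limma, adjusted p = 0.00946) and -0.37 ± 0.08 at day 6 (adjusted p = 0.000539).

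Sdhb, the iron-sulfur subunit, changed by -0.25 ± 0.05 at day 6 (SE; limma, adjusted p = 0.000867). Sdhd, the other membrane anchor, changed by -0.21 (adjusted p = 0.0201), a call lost for each of 3 arrays left out, day 0 mouse 5 and day 6 mice 4 and 7, with adjusted p up to 0.0602. The flavoprotein Sdha changed by -0.12 and did not pass against day 0 (adjusted p = 0.0567). From day 4 to day 6 Sdha and Sdhb fell by 0.14 and 0.15, calls that were lost for any of 5 arrays in Sdha (day 4 mice 6 and 8, day 6 mice 4, 7 and 21) and for any of 6 in Sdhb (those and day 4 mouse 7).

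Complex III, which hands electrons to cytochrome c, had 6 of 8 genes lower at day 6 and a median of -0.21. Uqcr11, a small subunit, had 6312, 6565, 7055, 6744 and 6955 at day 0. Its lowest, median and highest signals were 6166, 6352 and 6719 at day 2, 6173, 6547 and 7074 at day 4 and 4810, 5272 and 5565 at day 6. Only day 6 stood apart, below every array of the other 3 days. The change was -0.37 ± 0.05 at day 6 (SE; limma, adjusted p = 4.09e-06) and -0.33 ± 0.05 from day 4 to day 6 (adjusted p = 2.05e-05), and -0.03 at day 4, which did not pass.

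Uqcrq, another small subunit, had the earlier pattern in the probe set used, but its 2 tested probe sets differed in sign at day 4. It had 6963, 6846, 7064, 6661 and 7093 at day 0, then 5778, 5856 and 6187 at day 4 and 5569, 6064 and 6733 at day 6 (lowest, median, highest). All day 4 arrays lay below all day 0 arrays, while day 6 overlapped through mouse 1. The changes were -0.23 ± 0.05 at day 4 (SE; limma, adjusted p = 0.00308) and -0.17 ± 0.05 at day 6 (adjusted p = 0.0103).

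Uqcrfs1, the Rieske iron-sulfur protein that carries out the electron transfer, changed by -0.29 at day 4 (without overlap, adjusted p = 0.0134) and -0.24 at day 6 (adjusted p = 0.0207). From day 4 to day 6 the estimates of Uqcrq and Uqcrfs1 were 0.06 and 0.05, and neither passed. Uqcr10 changed by -0.29 and Uqcrh, the hinge protein, by -0.26 at day 6, both without overlap with day 0, and the core protein gene Uqcrc2 by -0.16. The estimates for Uqcrb (-0.03) and the core protein gene Uqcrc1 (-0.14, adjusted p = 0.0529) did not pass.

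Complex IV, cytochrome c oxidase, passes electrons to oxygen and has several subunits with a common and a muscle-type form. Of 16 genes tested, 5 fell at day 6 (31.2%, where 14.4% of all genes and 26.5% of the bright genes fell). The median change was -0.05 as deposited, but 0.01 after quantile normalization and 0.04 with the hybridization control covariate. The direction of its median thus depends on the scaling. Besides Cox7a1 the 5 were Cox8a (-0.21), Cox4i1 (-0.20), Cox6b1 (-0.19) and Cox6c (-0.13), which are expressed in most tissues. Whether complex IV fell by less than the other complexes was not tested.

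Cox7a1 encodes the form of subunit VIIa that is typical of heart and skeletal muscle. Its signals were 2220, 2210, 2225, 1918 and 2264 at day 0, and 1798, 2101, 1849, 1398, 2076 and 1875 at day 2. At day 4 they were 1980, 1978, 1530, 1564, 1717 and 1543, and at day 6 they were 875, 1344, 702, 769, 826 and 1144 (mice in rising order of number). Every day 6 array was below every array of the other 3 days, and the highest at day 6 was mouse 3. The mean signal of the 5 untreated mice was 2167 ± 141 (SD), and that of the 6 mice of day 6 was 943 ± 248 (SD). The change was -1.22 ± 0.13 at day 6 (SE; limma, adjusted p = 3.7e-07), -0.88 ± 0.13 from day 4 to day 6 (adjusted p = 3.47e-05), and -0.34 ± 0.13 at day 4, which did not pass (adjusted p = 0.0854). With the hybridization control covariate the day 6 change was -1.44 (adjusted p = 0.00146). Cox7a2, the common form of the same subunit, had lowest, median and highest signals of 18497, 19233 and 20989 at day 0 and 17195, 18554 and 20012 at day 6, which overlap, and its change of -0.05 did not pass (adjusted p = 0.401).

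**Figure D3:**
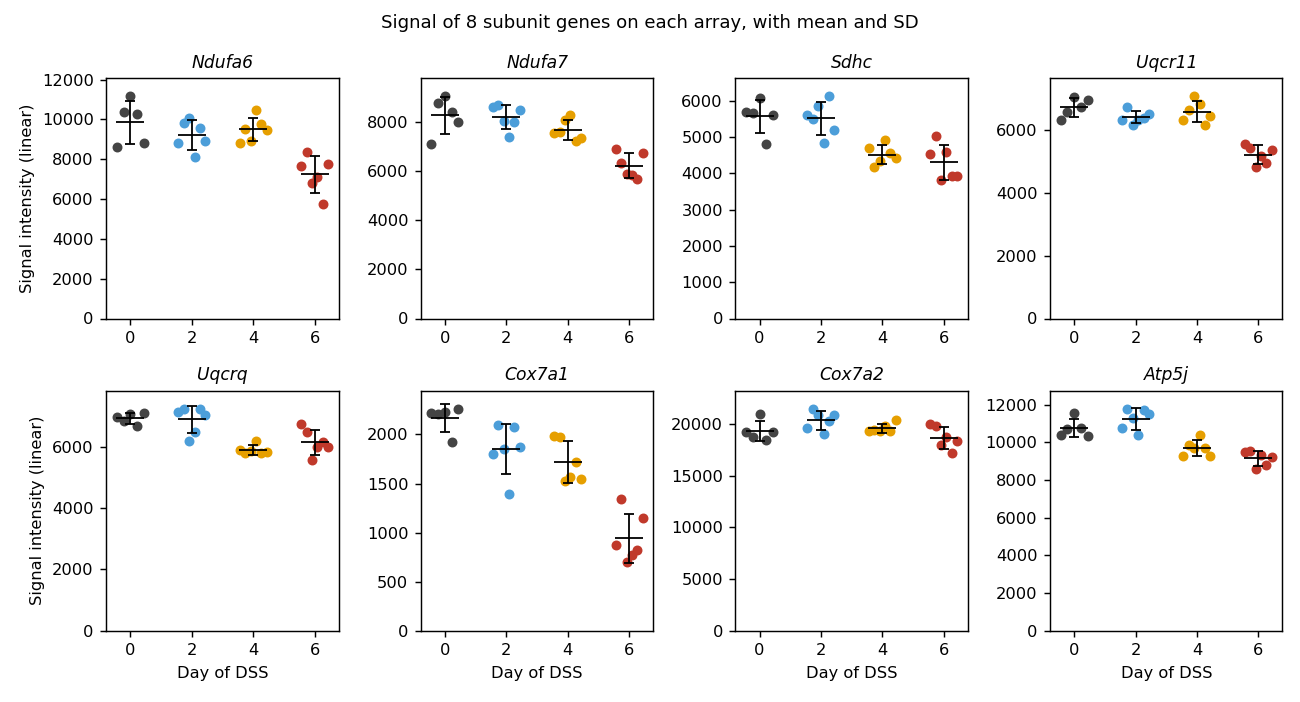
Signal intensity on a linear scale (vertical axis, from 0) of 8 subunit genes on each array, by day of DSS. Points are arrays and the bars give mean and SD per day; Uqcr11, Ndufa6 and Ndufa7 stand lower at day 6 alone, Cox7a1 is lowest at day 6, Sdhc, Uqcrq and Atp5j are lower from day 4, and Cox7a2 overlaps on all days.

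The other muscle-type isoforms of complex IV had no change that passed against day 0. Cox6a2 had 190, 211, 165, 111 and 152 at day 0, and between 113 and 799 at day 4 and between 90.9 and 900 at day 6. Cox8b had 149, 223, 287, 156 and 236 at day 0, and between 178 and 998 at day 4 and between 137 and 1180 at day 6. The arrays of each later day spread widely around those of day 0. The changes at day 4 of 1.28 ± 0.53 for Cox6a2 and 1.31 ± 0.54 for Cox8b did not pass (limma, adjusted p = 0.101 and 0.102).

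The levels of these isoforms moved with skeletal muscle RNA on the arrays. Over all 23 arrays the mean log2 level of the 12 skeletal muscle markers correlated with Cox6a2 at r = 0.919 and rho = 0.978, and with Cox8b at r = 0.885 and rho = 0.928 (permutation tests, p = 1e-05 for each, the smallest the permutations can give, adjusted p = 6e-05 over 12 relations). Without day 2 mouse 8 and day 4 mouse 8, the arrays farthest from the median marker level, r was 0.975 and 0.934. Within day 2, day 4 and day 6, with 6 arrays each, r was 0.906, 0.977 and 0.981 for Cox6a2 and 0.901, 0.943 and 0.942 for Cox8b (exact permutation tests, adjusted p from 0.00834 to 0.0167); day 0 has too few arrays. With the marker level as a covariate the day 4 changes of Cox6a2 and Cox8b were 0.74 and 0.78 and passed (limma, adjusted p = 0.0145 and 0.0381). Neither passed with the hybridization control covariate (adjusted p = 0.757 and 0.764).

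Cox7a1 showed no such relation over all arrays, with r = 0.079 and rho = -0.061 (permutation tests, p = 0.725 and 0.781, adjusted p = 0.725 and 0.781), and r = 0.059 without the same 2 arrays. The values over all arrays pool days that differ in the level of Cox7a1. Within days r was 0.839 at day 2, 0.365 at day 4 and 0.543 at day 6 (exact permutation tests, p = 0.1, 0.622 and 0.231). Without the 2 arrays of each day farthest from its median marker level, r was -0.258, -0.685 and 0.804. The arrays left out were day 2 mice 8 and 6, day 4 mice 8 and 1 and day 6 mice 4 and 21. With the marker level as a covariate its change was -1.29 at day 6 and -0.41 at day 4 (limma, adjusted p = 4.9e-08 and 0.0208). Of 2 markers of heart-type or slow muscle tested, Tnni1, the slow skeletal form of troponin I, also fell at day 6, by 1.54 ± 0.32 without overlap (limma, adjusted p = 0.000671), while Myl3 at 0.67 did not pass (adjusted p = 0.711). The part of such fibres in the fall of Cox7a1 was not tested. Of the 8 smooth muscle markers 0 rose and 0 fell at day 6 in limma, with a median change of -0.10, while 5 rose at day 4 with a median of 0.36. From day 4 to day 6, 6 of the 8 fell and 0 rose, with a median of -0.49, where 13.7% of all genes fell. With the hybridization control covariate 7 fell in that interval. At day 4 against day 0, 0 of the 8 rose with that covariate, with a median of 0.20, where 0.834% of all genes rose. The part of smooth muscle in the fall of Cox7a1 was not tested.

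**Figure D4:**
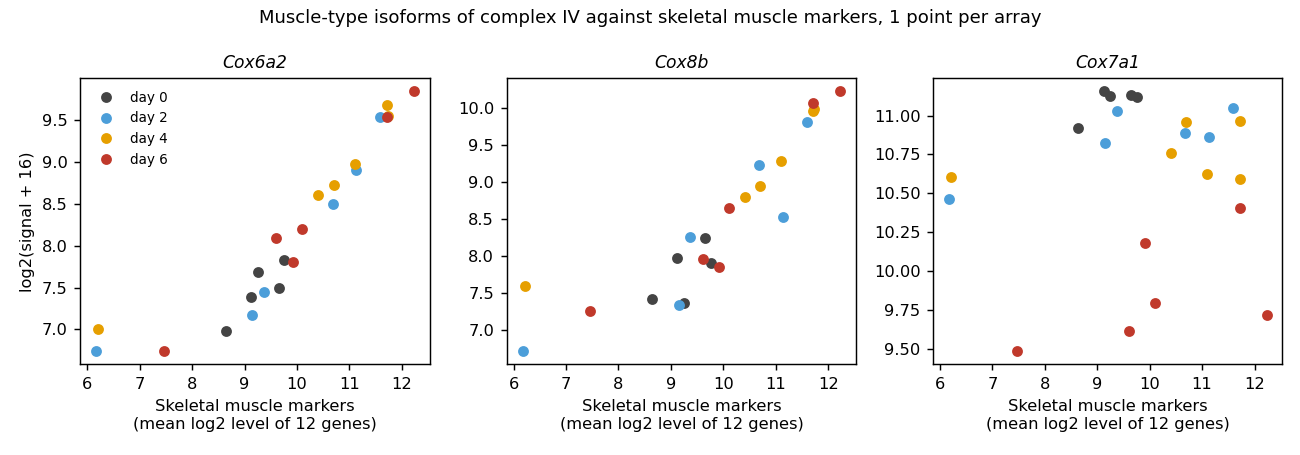
Level of 3 muscle-type isoforms of complex IV (vertical axis, log2 of signal + 16) against the mean log2 level of 12 skeletal muscle markers (horizontal axis), 1 point per array, coloured by day. Cox6a2 and Cox8b rise along the axis on all days, whereas the day 6 points of Cox7a1 lie below the others at any marker level.

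Among the remaining isoforms, the dim Cox6b2 changed by 0.08 at day 6 and Ndufa4l2, a gene known to be induced in hypoxia, by 0.44, and neither passed (limma, adjusted p = 0.737 and 0.196). Their common forms Cox6b1 and Ndufa4 changed by -0.19, which passed, and 0.03, which did not. Cox6a1, the common partner of Cox6a2, changed by -0.04 and did not pass. Cox7c, the gene called higher at day 4, was dim on this array. Its signals were 507, 341, 330, 457 and 366 at day 0 and 486, 570 and 668 (lowest, median, highest) at day 4, which overlap. The change was 0.51 ± 0.14 at day 4 (SE, limma, adjusted p = 0.0149). Averaging its probe sets gave 0.35 at day 4, which did not pass (limma, adjusted p = 0.088). Nor did the day 4 change pass with the hybridization control covariate (adjusted p = 0.196). Cox7c fell again by 0.43 from day 4 to day 6 (adjusted p = 0.0209), a call lost for day 4 mouse 8 or day 6 mouse 7 left out.

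ATP synthase had 13 of 17 genes lower at day 6 (76.5%), beside 75.0% in complexes II and III, 51.5% in complex I and 31.2% in complex IV, shares whose differences were not tested. Its median was -0.20, and all 17 estimates lay below 0. Atp5j, which encodes coupling factor F6 of the stalk, had 10416, 10692, 11542, 10743 and 10326 at day 0. Its lowest, median and highest signals were 10366, 11404 and 11797 at day 2, 9251, 9720 and 10399 at day 4 and 8561, 9266 and 9538 at day 6. Day 6 lay wholly below day 0, and day 4 overlapped through mouse 6. The change was -0.15 ± 0.05 at day 4 (limma, adjusted p = 0.0301) and -0.23 ± 0.05 at day 6 (adjusted p = 0.000466). The day 4 call was lost for any of 4 arrays, day 0 mice 3 and 4 and day 4 mice 1 and 8.

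The 3 largest falls of ATP synthase at day 6 were in small subunits. Atp5j2 (subunit f) changed by -0.31 ± 0.07, Atp5md by -0.30 ± 0.11 and Atp5e (subunit epsilon) by -0.29 ± 0.08 at day 6 (SE; limma, adjusted p = 0.00223, 0.0318 and 0.00435), and the arrays of each overlapped with day 0. Atp5md did not pass without day 0 mouse 2, 3 or 5 or day 6 mouse 4 or 21, with adjusted p up to 0.0986. Its signals at day 4 lay between 8904 and 9997, and from there to day 6 it fell by 0.50 without overlap (adjusted p = 0.000952). The catalytic head had -0.17 for Atp5a1 (subunit alpha) and -0.12 for Atp5b (subunit beta; adjusted p = 0.00699 and 0.0469).

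The 3 genes Atp5g1, Atp5g2 and Atp5g3 encode the same mature protein of the c-ring, the rotor of the enzyme. Atp5g1 had 7134, 7228, 7093, 7134 and 7531 at day 0, then 6037, 6420 and 6914 at day 4 and 5362, 5927 and 6360 at day 6 (lowest, median, highest), with no overlap with day 0 on either day. Its change was -0.16 at day 4 (limma, adjusted p = 0.0452) and -0.28 ± 0.06 at day 6 (adjusted p = 0.000384). Atp5g2 changed by -0.17 at day 6 (adjusted p = 0.0166), and Atp5g3 by -0.08, which did not pass (adjusted p = 0.123). The day 4 calls of Atp5g1, Atp5a1 and Cox8a did not hold without any 1 of 10, 9 and 13 arrays, each with adjusted p up to 0.108, 0.102 and 0.116; for all 3 these include day 0 mice 1, 3, 4 and 5 and day 4 mice 1, 3 and 7.

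Of the 17 genes that are no subunits, 1 fell at day 6, Cox7a2l, and their median change was -0.07. The share lower, 5.9%, was below the 14.4% of all genes. Cox7a2l is named for a role in joining complexes III and IV into a supercomplex, a role that was not measured in these mice. It had 5047, 6418, 6493, 6426 and 5482 at day 0 and 4237, 4813 and 4963 (lowest, median, highest) at day 6, without overlap. The change was -0.33 ± 0.07 at day 6 (SE; limma, adjusted p = 0.00104) and -0.35 from day 4 to day 6 (adjusted p = 0.000656). The heme A synthesis gene Cox15, the assembly factor Cox20 and Ndufaf7 fell from day 4 to day 6, by 0.34, 0.31 and 0.27, but not against day 0. The call of Cox15 was lost for any of 6 arrays, day 4 mice 1, 3, 7 and 8 and day 6 mice 4 and 21.

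Many genes have several probe sets, which can read different transcripts. Tested by itself, each of 81 of the 176 probe sets of members that passed the filter fell and 2 rose (46.0% lower, where 16.2% of all 21639 probe sets fell and 14.6% rose). The rises were the probe set of Ndufb1 and 1 of the 3 of Ndufs4, which changed by 0.32 (limma, adjusted p = 0.0206) while the others changed by -0.04 and -0.21 without passing. No gene was called in both directions. In 8 genes with a call at day 6 the estimates of different probe sets had different signs: Atp5a1, Atp5g2, Cox5b, Cox8a, Ndufab1, Ndufs4, Ndufs8 and Sdhd. Averaging the probe sets of a gene turned the estimate for Atp5g2 at day 6 to 0.16 and those at day 4 for Atp5a1, Cox8a and Ndufa10 to 0.00, 0.09 and 0.08. Signs also differed in 8 genes with a call at day 4: Atp5a1, Atp5g2, Cox8a, Ndufa10, Ndufs4, Ndufs8, Uqcrb and Uqcrq. By probe set the same fit gave 12 lower and 5 higher at day 4. The share lower, 6.8%, was below the 9.39% of all probe sets in that fit, where 10.1% rose. From day 0 to day 4 the larger share of falls seen by gene was thus not seen by probe set in this fit. From day 2 to day 4 it gave 18 lower and 1 higher (6.63% and 7.43% of all), and from day 4 to day 6 it gave 55 and 0 (10.9% and 8.33%). At day 2 it gave 0 and 0 by limma (0.097% and 0.0139% of all).

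Electron carriers, shuttles and channels connect the complexes with the rest of the cell. Of 28 electron carriers and exchange proteins tested, 8 fell and 0 rose at day 6 (28.6% lower, where 14.4% of all genes fell and 18.1% rose), with a median of -0.13. By limma 0 of the 28 passed in either direction at day 6 or day 4 with the hybridization control covariate. In that fit 3 (10.7%) had an unadjusted p under 0.05 on each of those days. Of all 12463 genes 2846 had one at day 6 and 2094 at day 4. Vdac3, a channel of the outer membrane, fell by 0.29 with no overlap (limma, adjusted p = 0.000926) and Etfdh, which feeds electrons from fat oxidation into the chain, by 0.24. Cycs, cytochrome c itself, changed by 0.03 and did not pass. Gpd2, the mitochondrial glycerol 3-phosphate dehydrogenase, fell by 0.74 at day 4 without overlap (adjusted p = 0.00103), and its change of -0.19 at day 6 did not pass. Its day 4 change was -0.58 with the hybridization control covariate and did not pass (adjusted p = 0.183). Slc25a4, the ADP/ATP carrier typical of muscle, rose by 0.60 at day 4 (adjusted p = 0.0119) and by 0.47 with the skeletal muscle covariate (adjusted p = 0.0082), but with the hybridization control covariate its change did not pass (adjusted p = 0.365).

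Of 36 assembly factors outside the symbol rule, 7 fell and 1 rose at day 6, with a median of -0.01. The share lower, 19.4%, is near the 14.4% of all genes, and fewer rose than the 18.1% of all genes. The largest falls were Dmac2, a complex I assembly gene, at -0.46, Nubpl, which supplies iron-sulfur clusters to complex I, at -0.45, and Surf1, an assembly factor of complex IV, at -0.39 (limma, adjusted p = 0.00262, 0.00206 and 0.000344). Surf1 and Nubpl did not overlap with day 0. The changes of Dmac2, Nubpl and Surf1 with the hybridization control covariate were -0.52, -0.47 and -0.19 and did not pass (adjusted p = 0.134, 0.16 and 0.422). From day 4 to day 6, 10 of the 36 assembly factors fell and 1 rose (27.8% lower, where 13.7% of all genes fell and 9.07% rose). Of the subunits encoded in mitochondrial DNA 1 was measured, ND5 of complex I, with a change of 0.13 at day 6 that did not pass (adjusted p = 0.296).

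Of 31 regulators of mitochondrial biogenesis and oxygen metabolism, 6 fell and 1 rose at day 6 (19.4% lower, near the 14.4% of all genes), with a median of -0.16. From day 4 to day 6, 10 of the 31 fell and 2 rose (32.3% lower, where 13.7% of all genes fell and 9.07% rose). Ppargc1a, a coactivator that drives mitochondrial biogenesis, had 1030, 1207, 1155, 1210 and 1394 at day 0. Its lowest, median and highest signals were 433, 850 and 938 at day 2, 332, 385 and 600 at day 4 and 77.8, 225 and 517 at day 6. All arrays of each later day were below all arrays of day 0 (at day 2, 1.01% of all genes lay below without overlap). The change was -0.70 at day 2, which did not pass (limma, adjusted p = 0.301), -1.48 ± 0.29 at day 4 (adjusted p = 0.00157) and -2.40 ± 0.29 at day 6 (adjusted p = 1.73e-06). Averaging its probe sets gave -0.36 at day 4, which did not pass (adjusted p = 0.299), and -1.55 at day 6 (adjusted p = 2.34e-05).

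Esrrg, a nuclear receptor that works with that coactivator, changed by -1.35 ± 0.26 at day 6 (SE; limma, adjusted p = 0.00029) from a dim level, with 222, 225, 260, 215 and 187 at day 0 and 30.5, 65.7 and 191 (lowest, median, highest) at day 6. Only day 6 mouse 3 reached into the range of day 0. Tfb2m, a factor for transcription of mitochondrial DNA, fell by 0.42 at day 4 and 0.45 at day 6, without overlap on both days (adjusted p = 0.00424 and 0.000634). Tfam at -0.07, Nrf1 at 0.12 and Esrra at -0.18 did not pass. Hif1a, the oxygen-regulated factor that favours glycolysis, was the rise of this list, by 0.58 ± 0.12 at day 6 with no overlap (adjusted p = 0.000578). With the hybridization control covariate the day 6 changes of Ppargc1a and Esrrg were -2.40 and -2.03 and passed (adjusted p = 0.01 and 0.00882), and those of Tfb2m and Hif1a were -0.23 and 0.24 and did not (adjusted p = 0.443 and 0.538). The day 4 changes of Ppargc1a and Tfb2m did not pass with that covariate either, at -1.48 and -0.24 (adjusted p = 0.118 and 0.415).

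**Figure D5:**
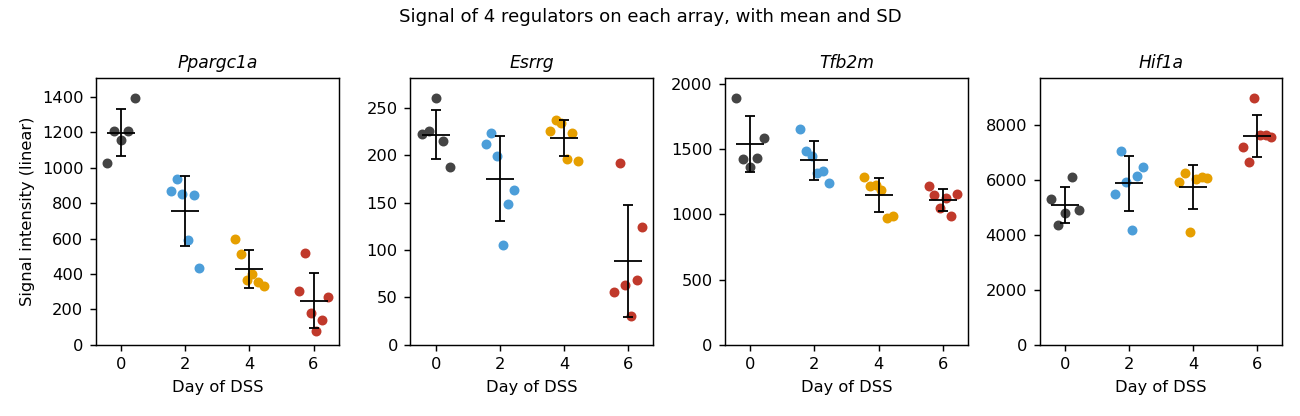
Signal intensity on a linear scale (vertical axis, from 0) of 4 regulators of mitochondrial or oxygen metabolism on each array, by day of DSS, with mean and SD per day. The mean of Ppargc1a is lower on each later day, Esrrg is low at day 6 except on mouse 3, Tfb2m is lower from day 4, and Hif1a is higher at day 6.

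Markers of epithelial cells were lower at days 4 and 6 too. Without a covariate, more of them fell from day 2 to day 4 than from day 4 to day 6. Of 12 pan-epithelial markers 3 fell and 0 rose at day 4 and again at day 6, with medians of -0.11 and -0.16. These are 25.0% of the markers on each day, where 4.34% and 14.4% of all genes fell. From day 2 to day 4, 8 of them fell and 0 rose, with a median of -0.26, and from day 4 to day 6, 1 fell and 1 rose, with a median of -0.02. Among the members 10 fell in the earlier interval and 31 in the later one (10.5% and 32.6%). Of all genes 4.12% fell in the earlier interval and 13.7% in the later one. Of 9 absorptive colonocyte markers 3 fell and 0 rose at day 4 and 4 fell and 0 rose at day 6 (33.3% and 44.4% lower). The medians were -0.19 and -0.37. From day 2 to day 4, 4 of the 9 fell, and from day 4 to day 6, 2 fell and 1 rose. Their mean log2 level was 13.2 to 13.3 at day 0 and 12.4 to 13.0 at day 6, without overlap. With the hybridization control covariate 0 of the 12 and 0 of the 9 markers passed at day 6 by limma. In that fit 1 (8.33%) and 5 (55.6%) had an unadjusted p under 0.05, where 2846 of all 12463 genes had one. From day 2 to day 4, 0 of the 12, 0 of the 9 and 0 of the 95 members passed with that covariate. Of all 12463 genes 20 fell and 65 rose there. From day 4 to day 6, 1 of the 12 fell and 1 rose with it, and 2 of the 9 fell and 1 rose. The part of cell composition in the falls of the members was not tested.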

How the data were processed

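Signal intensity was deposited by the authors per probe set on a linear scale, made with MAS5 per the submitters' processing notes; the genome build is not given in the sources used here. Such values cannot show a change in total RNA. Trimmed means were already alike (499.8 to 499.9, trimming 2% at each end), so no normalization was added. Of 45101 probe sets, 64 controls were left out of tests, 34945 had 1 gene symbol, 932 several and 9160 none. Only probe sets with 1 symbol were named, through a platform annotation that can be old.

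Probe sets above their array's median on 5 or more of the 23 arrays were kept, which left 21639 with 1 symbol for 12463 genes. The probe set with the highest mean stood for its gene. Signals were taken as log2(signal + 16), which understates changes of dim genes. All 4 days entered 1 fit (limma 3.58.1, R 4.3.3, eBayes with trend), and a gene passed at a Benjamini-Hochberg adjusted p of 0.05 or less within its contrast; tests were two-sided. The number of arrays limits the precision.

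Members and lists were chosen with earlier results of these data known. Named genes are, per comparison and complex, up to 3 rises and 3 falls with the largest change among those that passed (or the lowest p), the tissue isoforms with their common forms, up to 3 genes of each other list, and genes whose probe sets differ in sign. Other genes named for their role or their count were chosen after their values were seen.

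Mouse numbers recur between days. In 17 pairs of arrays with the same number, deviations from the day means correlated at -0.157 to 0.704, 3 of them over 0.1, so the numbers do not pair the arrays. Alternatives were other pseudocounts (1 and 64), filters, quantile normalization, median centring, the mean of probe sets or each by itself, no trend, the mouse number as a block, covariates for hybridization controls and skeletal muscle markers, mice 1 to 8 only, without 4 arrays that stand apart in marker levels (day 2 mouse 6 and day 6 mouse 1, high in pancreas markers, and day 2 mouse 8 and day 4 mouse 8, lowest in skeletal muscle and squamous markers), and each array left out.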

Additional observations from a re-analysis of the deposited data

Results flagged for a closer look

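In 176 groups of arrays (44 named genes on 4 days), 10 had an array whose gap to the next exceeded Dixon's 95% limit. Chance alone gives about 1 in 20 groups, so this number is near that level. At day 0, mouse 3 was apart in 3 genes, high for Atp5mpl (11450, others 10091 to 10436) and Cox5b (16234, others 15390 to 15530) and low for Cox15 (697, others 851 to 916). Day 0 mouse 4 was low for Cox7a1 (1918, others 2210 to 2264). At day 2, mouse 6 was high for Atp5h (13298, others 11724 to 12219) and mouse 7 low for Ndufa4 (6664, others 7411 to 7771). At day 4, mouse 6 was high for Uqcr10 (8185, others 7245 to 7523) and Uqcrq (6187, others 5778 to 5880), and mouse 8 was low for Ndufa4l2 (109.7, others 258 to 372). At day 6, mouse 4 was low for Cox7a2l (4237, others 4680 to 4963).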

How the results depend on the processing

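Numbers of genes that passed, given as lower and higher of 95 where both moved, depended on the setting as follows. At day 4 against day 0 (8 and 1), the number lower was 3 with no filter, 3 with no trend, 4 with the mean of probe sets, 20 with median centring and 5 without the 4 arrays apart in marker levels. The number higher was 3 without those 4 arrays, 3 with the skeletal muscle covariate, 2 in mice 1 to 8 and 5 by probe set, and with the hybridization covariate both were 0. At day 6 against day 0 (45 and 1) they were 5 and 0 with the hybridization covariate and 81 and 2 by probe set, and the number higher was 2 without the 4 arrays. At day 4 against day 2 (10 and 1) they were 5 and 2 with quantile normalization, 25 and 0 with centring and 0 and 0 with the hybridization covariate. There the number lower was 5 in mice 1 to 8 and 18 by probe set, and the number higher was 0 with the mean of probe sets. At day 6 against day 4 (31 lower) it was 19 in mice 1 to 8 and 55 by probe set. Medians by complex under centring were, for I, II, III, IV and V at day 4 against day 0, -0.095, -0.179, -0.125, -0.083 and -0.153. For I, III, IV and V they were -0.242, -0.281, -0.129 and -0.278 at day 6 against day 0, and -0.111, -0.16, -0.133 and -0.154 at day 4 against day 2. Complex IV had 0.012 at day 6 with quantile normalization, and with the hybridization covariate 0.061 at day 4 and 0.039 at day 6, where complex III had -0.133. The mean of probe sets turned the sign of Atp5a1 (0.002), Cox8a (0.094) and Ndufa10 (0.081) at day 4 and Atp5g2 (0.156) at day 6 against day 0, and of Uqcrq (0.064) at day 4 against day 2. Leaving out 1 array at a time gave 3 to 10 lower and 1 to 3 higher at day 4, 37 to 49 lower and 1 higher at day 6, 7 to 12 lower and 0 to 2 higher from day 2 to day 4, and 20 to 38 lower from day 4 to day 6. With the mouse number as a replicate block (correlation 0.0273) the numbers lower were 9, 45, 10 and 32 in the same order, and those higher 1, 1, 1 and 0. Of 702 values of 54 single-gene results under settings other than single arrays, 593 kept direction and call, 104 lost the call and 5 turned. The hybridization control covariate alone lost the call of 38 of the 54 results. The next most were 15 in mice 1 to 8 only and 11 with the mean of probe sets. Of 1242 values with 1 array left out, 1140 kept both and 102 lost the call. The causes were not tested. Day 0 has 5 arrays, and dim genes such as Ndufb1, Cox7c, Cox6a2 and Cox8b limit precision most, since their signals are low.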
